A study of Mus musculus with 8 samples.

Results

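Small nuclear RNAs (snRNAs) are short noncoding RNAs that act with proteins in the nucleus. U1, U2, U4, U5 and U6 snRNAs form the major spliceosome, U11, U12 and U6atac belong to the minor spliceosome, and U7 snRNA takes part in the processing of histone mRNA ends. Most snRNA genes are transcribed by RNA polymerase II, whereas U6 and U6atac genes are transcribed by RNA polymerase III. Their promoters share a proximal sequence element, which binds the SNAPc complex, and a distal sequence element that often holds an octamer bound by OCT1 (Pou2f1), and U6 promoters have in addition a TATA box. Mammalian genomes hold many copies of these genes, most of which are degenerate copies.

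Accessible regions at snRNA genes were examined in ATAC-seq data of MPP3 and MPP4 cells, the myeloid-biased and lymphoid-biased multipotent progenitors of mouse bone marrow. A peak was chosen by its closest annotated transcript, with its center inside the transcript, at most 20 kb before its start or at most 10 kb past its end, and was kept when that transcript belonged to an snRNA gene. These were 562 of 87642 peaks in MPP3 cells (0.641%) and 549 of 86952 peaks in MPP4 cells (0.631%), and they were assigned to 343 and 339 genes, respectively. The peaks were also grouped by their distance to the gene and by their mean log2 CPM (fragment counts scaled to library size), so peak detection and level are what chose and sorted them, and these values are given as a description without a test.

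The libraries came from C57BL/6 mice that were 8 or 9 weeks old, and the 8 libraries comprised 2 per combination of genotype and cell type. All mice carried floxed *Ebf1* alleles (Ebf1fl/fl); WT mice had no Cre (Tie2Cre +/+), and KO mice carried Tie2Cre +/cre, in which the Tie2 (*Tek*) promoter drives Cre in hematopoietic and endothelial cells. MPP3 cells were all from females, with WT mice of 8 weeks and KO mice of 8 and 9 weeks. The MPP4 libraries came from WT mice of 9 weeks (1 female and 1 male) and female KO mice of 8 weeks. After depletion of lineage-positive cells, MPP3 cells were sorted as LSK+ CD150- CD48+ and MPP4 cells as LSK+ CD150- CD48+ Flt3+. Each peak has 1 mean log2 CPM per cell type, over its 4 libraries of both genotypes, as the authors' value. No value per library was analysed here, so neither the spread between mice nor a difference between genotypes was tested, the loss of *Ebf1* could not be checked, and the depth of single libraries is unknown. MPP3 and MPP4 values were normalized separately. As a check of the sorted cells, the highest peak within 1 kb of a transcript start of *Flt3* had a mean log2 CPM of 5.92 in MPP3 and 7.01 in MPP4 cells, and that of *Kit* 5.54 and 5.63. No such peak was listed for *Cd3e* or *Ly6g* in either cell type, whereas *Slamf1*, which encodes CD150, had a weak peak of 1.42 and 1.33.

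The annotation holds 1383 snRNA genes, and RefSeq products placed 952 of them in a family. The peak tables cover 19 chromosomes, all autosomes, which leaves 1292 genes and puts 91 genes on the sex chromosomes out of reach. The sequences around the start of 4 genes are shown because they differ in the octamer and in the presence of a peak. Each runs from 250 bases before the gene start to base 50 of the gene, on the strand of the gene, in GRCm38 (mm10). Capitals mark the octamer ATGCAAAT on either strand and TATAAA or TATATA starting 45 to 15 bases before the gene. *Rnu2-10* (chr11:101657988-101658287, plus strand) encodes U2 and has peaks in both cell types, and *Gm25813* (chr8:52337056-52337355, minus strand) is a U2 copy of 98.95% identity to it without a peak. *Gm24407* (chr5:115490004-115490303, plus strand) is a U4 gene and *Rnu1a1* (chr11:87422617-87422916, plus strand) encodes U1, and both have peaks.
Rnu2-10: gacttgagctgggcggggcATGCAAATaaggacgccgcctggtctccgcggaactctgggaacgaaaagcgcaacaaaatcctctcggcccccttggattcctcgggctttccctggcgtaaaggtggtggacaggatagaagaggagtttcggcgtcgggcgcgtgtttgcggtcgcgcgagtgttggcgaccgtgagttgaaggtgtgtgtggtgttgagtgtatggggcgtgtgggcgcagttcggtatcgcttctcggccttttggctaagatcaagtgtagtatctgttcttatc
Gm25813: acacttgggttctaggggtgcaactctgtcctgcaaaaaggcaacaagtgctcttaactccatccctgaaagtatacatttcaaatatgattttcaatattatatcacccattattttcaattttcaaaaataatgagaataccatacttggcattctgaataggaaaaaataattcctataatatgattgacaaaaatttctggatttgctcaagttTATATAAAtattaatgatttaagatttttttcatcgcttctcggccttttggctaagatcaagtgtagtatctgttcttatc
Gm24407: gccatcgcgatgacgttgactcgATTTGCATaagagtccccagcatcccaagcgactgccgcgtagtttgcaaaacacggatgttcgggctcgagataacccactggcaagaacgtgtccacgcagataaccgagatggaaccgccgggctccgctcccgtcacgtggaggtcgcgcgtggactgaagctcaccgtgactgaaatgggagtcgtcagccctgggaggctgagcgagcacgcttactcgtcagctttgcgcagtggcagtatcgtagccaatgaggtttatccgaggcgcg
Rnu1a1: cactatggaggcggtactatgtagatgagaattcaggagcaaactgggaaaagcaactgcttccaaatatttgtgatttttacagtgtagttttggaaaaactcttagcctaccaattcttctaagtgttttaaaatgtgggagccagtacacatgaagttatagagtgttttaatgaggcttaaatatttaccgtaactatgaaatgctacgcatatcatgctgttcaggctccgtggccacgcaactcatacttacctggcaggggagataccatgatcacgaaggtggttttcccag

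*Rnu2-10* and *Gm24407* have the octamer, at positions -231 and -227 from the gene start, whereas *Gm25813* and *Rnu1a1* do not. *Rnu2-10* and *Gm25813* have the same first 50 bases of the gene, but in the 250 bases before the start 58 positions hold the same base.

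Peaks at the gene, with their center inside it or within 500 bp, were few. There were 68 in MPP3 and 68 in MPP4 cells, beside 267 and 260 peaks near the gene (500 bp to 5 kb) and 227 and 221 peaks far from it (over 5 kb). Peaks at the gene had a median log2 CPM of 3.26 in MPP3 cells (95% interval of the median 2.57 to 3.97) and 3.43 in MPP4 cells (2.77 to 4.19). The medians of near peaks were 1.99 and 2.14, those of far peaks were 1.90 and 2.07, and those of all peaks were 2.24 and 2.35. Near and far peaks were thus slightly below the median of all peaks, and peaks at the gene were above it. The 95% interval for near MPP4 peaks, 1.87 to 2.43, held the median of all peaks. Of the near and far peaks, 0 were within 1 kb of a protein-coding transcript start, against 23.0% and 23.3% of all peaks. Whether this accounts for their lower medians was not tested. The difference between medians at the gene and far from it was 1.36 in both MPP3 and MPP4 cells. Per kb of peak length, the median log2 CPM was 5.14 at the gene, 3.84 far from it and 4.11 over all peaks in MPP3 cells, and 4.94, 3.85 and 4.15 in MPP4 cells.

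**Figure D1:**
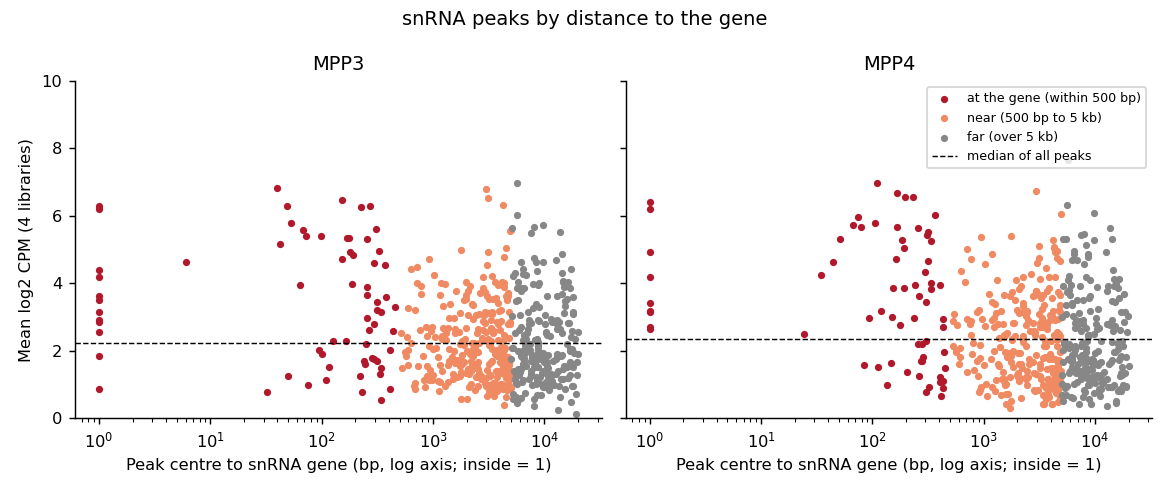
Mean log2 CPM of each snRNA peak against the distance of its center from the gene in bp (log axis, peaks with their center inside the gene drawn at 1) in MPP3 and MPP4 cells. Each point is 1 peak, the dashed line is the median of all peaks (2.24 and 2.35), and most points over 5 kb from the gene lie below a mean log2 CPM of 4.

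Very strong peaks made up a larger share of the peaks at the gene than of all peaks. A mean log2 CPM of at least 6 was reached by 7 of 68 peaks at the gene in MPP3 cells (10.3%) and 7 of 68 in MPP4 cells (10.3%), next to 2.98% and 2.74% of all peaks. The share was similar, 10.6% in MPP3 and 8.28% in MPP4 cells, among peaks within 1 kb of a protein-coding transcript start. At the other end, 19 of 68 peaks at the gene in MPP3 and 18 of 68 in MPP4 cells were below 2. Peaks within 1 kb of a protein-coding transcript start had medians of 3.78 and 3.71, above the 3.26 and 3.43 at snRNA genes. Without the peaks at such starts, the medians at snRNA genes were 3.18 and 3.17. Peaks within 500 bp of small nucleolar RNA (snoRNA) genes, another family of short nuclear RNAs that mostly lie in introns, had medians of 1.75 and 1.87. Of the peaks at snRNA genes, 47 of 68 in MPP3 and 50 of 68 in MPP4 cells were outside protein-coding genes. Of all snRNA peaks, 6 of 562 in MPP3 (1.07%) and 9 of 549 in MPP4 cells (1.64%) were within 1 kb of a protein-coding start. Over all peaks the shares were 23.0% and 23.3%. The low share of snRNA peaks follows at least in part from the choice of the closest transcript, and is not read as a trait of these peaks.

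**Figure D2:**
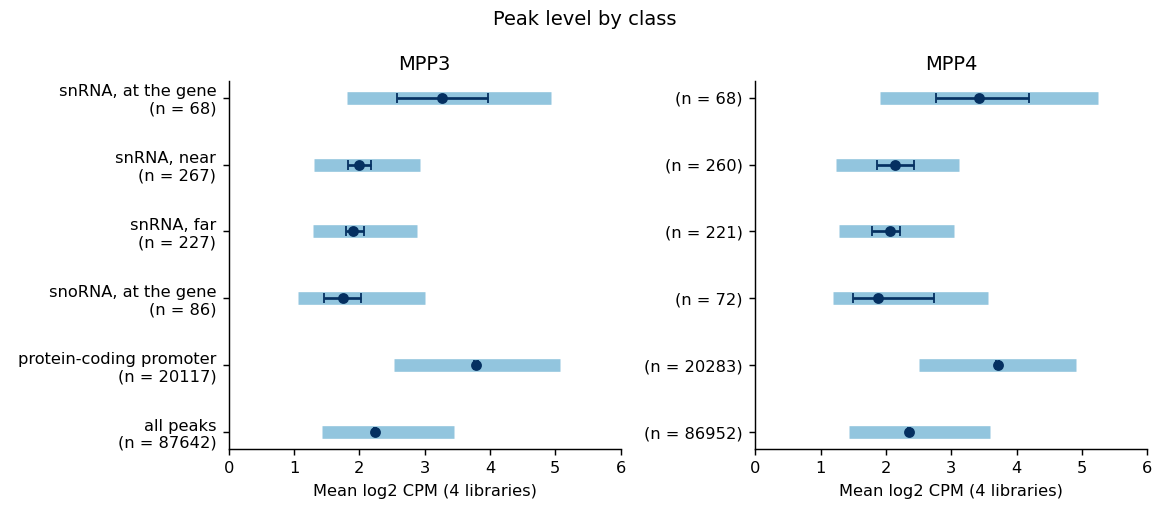
Median mean log2 CPM (points) with the 95% interval of the median (thin bars) and the interquartile range (wide bars) of snRNA peaks by distance, of peaks at snoRNA genes, of protein-coding promoter peaks and of all peaks. Peaks at the snRNA gene (3.26 in MPP3 and 3.43 in MPP4 cells) lie nearer to protein-coding promoters (3.78 and 3.71) than to snoRNA genes (1.75 and 1.87).

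The genes with a peak were counted next, by any peak centered within 500 bp, whichever gene that peak was assigned to. Of 1292 autosomal snRNA genes, 71 had a peak in MPP3 and 74 in MPP4 cells, and 86 had one in either (6.66%, 95% Wilson interval 5.42 to 8.15%). Of 1442 snoRNA genes, 104 had a peak in MPP3 (7.21%) and 88 in MPP4 cells (6.10%), so a peak was rare at both kinds of gene. The snoRNA shares are per cell type, and are to be set beside the 71 and 74 of 1292 snRNA genes rather than the 6.66%. The share of snRNA genes is given by family. A peak in either cell type was found at 7 of 11 U5 genes (63.6%), 11 of 25 U2 genes (44.0%), 12 of 115 U1 genes (10.4%) and 24 of 655 U6 genes (3.66%). U4 genes had a peak at 2 of 11, and the pair *Gm24265* and *Gm24407* shared 1 peak. Genes without a RefSeq family had a peak at 24 of 411 (5.84%).

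Among U2 genes, peaks were found at near-identical copies. Of 12 autosomal U2 genes that were at least 95% identical to *Rnu2-10*, 11 had a peak, and of 13 below 95% none had one, which allows a share of up to 22.8% by the Wilson interval. For U1 the counts were 9 of 25 at 95% or above, and 3 of 90 below. U6 showed no such split, with 7 of 177 genes (3.95%) at 95% or above and 17 of 478 (3.56%) below. Of 40 autosomal U6 genes with the full U6 sequence, 1 had a peak, *Gm25064*. Both U5 genes of at least 95% identity had a peak, as did 5 of 9 U5 genes below it.

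**Figure D3:**
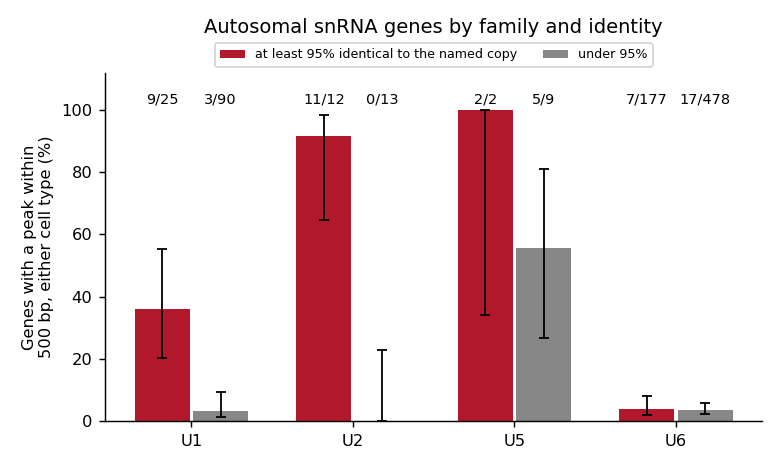
Share of autosomal U1, U2, U5 and U6 genes with a peak centered within 500 bp in either cell type (y axis, %), for genes at least 95% identical to a named copy (red) and below 95% (grey), with 95% Wilson intervals and the counts above. U2 genes went from 11 of 12 to 0 of 13, and U6 genes were at 3.95% and 3.56%.

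Near-identical copies limit what mapped reads can show, since a fragment that fits several places is not kept at a single place. The share of 50-base words within 500 bp of a gene that occur once in the genome was therefore computed for each gene. It was 0% inside the gene body of *Rnu2-10* and *Rnu1a1*, and 77.1% and 88.8% over the whole window, so that the unique words there lay in flanking sequence. The paper's paired reads were longer than these words, so a fragment can be placed where a single word is not unique. *Rnu1b1*, *Rnu1b2* and *Rnu1b6*, which encode U1 on chromosome 3, had no peak within 500 bp, and 7.53%, 7.35% and 2.95% of their words were unique. *Rnu6* had no peak at 18.7%. A low share did not exclude a peak, since *Gm23804*, a U1 gene on chromosome 12, had peaks of 3.13 and 3.16 at 1.70%. Absence of a peak at genes with few unique words is therefore not a measure of closed chromatin. Peaks were also absent from most genes with at least 50% unique words, since among these 7 of 151 U6 genes and 3 of 13 U1 genes of at least 95% identity had a peak. U1 genes of that identity with fewer unique words had a peak at 6 of 12. For *Gm25813*, the U2 copy without a peak, 83.2% of the words were unique.

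Of the 11 genes whose symbols begin with Rnu, 6 had a peak within 500 bp. *Rnu2-10* had a mean log2 CPM of 6.47 in MPP3 and 6.55 in MPP4 cells, above 98.5% and 98.9% of all peaks. *Rnu1a1* had 5.80 and 5.98, and *Rnu5g* 5.40 and 5.80, with a second upstream peak of 3.65 in MPP3 cells. *Rnu7*, which encodes U7, had 6.05 and 6.34, and its peaks were assigned to the neighbouring gene *Grcc10*. *Rnu11* had 4.86 and 4.99 in peaks assigned to *Gm28872*. *Rnu12* had a single peak of 1127 bp at 6.39 in MPP3 cells, assigned to *Poldip3*, and peaks of 4.35 and 5.67 in MPP4 cells, of which the second was assigned to *Rnu12*. These peaks of *Rnu7*, *Rnu11* and *Poldip3* show that the assignment by the closest transcript misses accessible snRNA genes that overlap or adjoin another gene. No peak was centered within 500 bp of *Rnu6-ps2*, where 97.4% of words were unique and the nearest peak was 11631.5 bp away in MPP3 cells.

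The highest peaks at the gene lay mostly in groups of gene copies. *Gm23849*, a U2 gene on chromosome 11, had the highest level in both cell types (6.82 in MPP3 and 6.97 in MPP4 cells), at chr11:101627056-101628136 in MPP3 cells. Its peaks were also 346 bp (MPP3) and 275.5 bp (MPP4) from a start of the protein-coding gene *Rdm1*. *Gm23849* belongs to a group of 5 U2 genes within 53.6 kb that includes *Rnu2-10*. All 5 had a peak, from 4.40 to 6.82 in MPP3 and from 3.86 to 6.97 in MPP4 cells. A group of 4 U2 genes on chromosome 1 also had a peak at each gene, and *Gm25939* (6.21 and 6.42) was the highest of them and *Gm23472* (2.85 and 2.96) the lowest. In a group of 7 U1 genes on chromosome 12, 5 had a peak, with *Gm22513* at 6.30 and 6.20, and the 2 genes without one, *Gm25679* and *Gm26444*, had no unique word. A larger group of 8 U1 genes on chromosome 3 had a peak at 2, *Gm25890* and *Gm22614*, and among its genes without a peak *Gm24136* had 94.7% unique words. *Gm22068*, a U1 gene beside *Rnu1a1* in an intron of *Tex14*, had 6.30 and 6.67. Its peaks were 663.5 and 544.5 bp from a protein-coding start of *Tex14*. Those of *Gm22513* were 955 and 984 bp from a protein-coding start of *Eapp*. *Gm24407* had 6.29 and 6.55, and *Gm25064*, a U6 gene, 5.61 and 5.53. *Gm25541*, the single U6atac gene with a peak, had a peak of 6.28 in MPP3 cells, where MPP4 cells had 2 peaks, of which the higher, at 5.31, was assigned to *Gm13421*.

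The octamer was present at the U2 genes that had a peak. All 11 held it, at positions -233 to -222 from the gene start, and 0 of 14 U2 genes without a peak held it. *Gm25813* is one of these. For U5 the counts were 4 of 7 with a peak and 0 of 4 without, and for U6 they were 5 of 24 and 15 of 631. Of 5 U6 genes with both octamer and TATA motif, 4 had a peak (*Gm24019*, *Gm24859*, *Gm23296* and *Gm25064*), against 1 of 15 with the octamer alone (*Gm26243*), 2 of 35 with the TATA motif alone (*Gm25268* and *Gm23229*) and 17 of 600 with neither. U1 genes had the octamer at 1 of 12 with a peak, *Gm22068*, and at 2 of 103 without. Over all families, 26 of 86 genes with a peak (30.2%) and 29 of 1206 without (2.40%) held it, next to 1.74% of 32851 RefSeq promoters of the same length. A pattern like the proximal sequence element (ACCNTNNNNNNAAAG, with any base at N, on the strand of the gene) was found in 5 of 86 and 17 of 1206 genes, and in 0.423% of RefSeq promoters. Counting only matches before the gene start, 4 of 86 genes with a peak and 5 of 1206 without one had it, and the other matches lay inside the gene. These matches are a description and do not show that a factor is bound.

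Within the peaks themselves, an octamer was found in 11 of 68 peaks at the gene in each cell type (16.2%, Wilson interval 9.28 to 26.7%). The share was 4 of 267 in near and 4 of 227 in far MPP3 peaks, and 1.31% in all MPP3 peaks. Other MPP3 peaks of the same mean log2 CPM (in bins of 0.5) had a share of 1.53%.

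The position of the peaks was followed along the genes of each family. At the 11 U2 genes with a peak, coverage was highest just downstream of the gene of 191 bp, where 11 genes were covered 220 bp from the start in MPP3 and 11 genes 260 bp from the start in MPP4 cells. At the 7 U5 genes, all were covered 200 bp from the start in both cell types, but between 140 and 110 bp upstream of the start none was, although all 7 had unique words there. At the 7 U6 genes of at least 95% identity, coverage was highest upstream. There, 6 genes were covered in MPP3 and 5 in MPP4 cells 300 bp upstream of the start, and 1 and 0 were covered 100 bp upstream. In MPP4 cells, however, the peaks within 500 bp of *Gm24182*, *Gm24019* and *Gm26243* were centered 344, 140.5 and 368.5 bp downstream of the start. Part of the upstream coverage in MPP4 cells therefore came from peaks centered more than 500 bp from the gene. U1 genes were covered most often downstream of the gene, at 6 of 9 genes 420 bp from the start in both cell types, where 5 of 9 had a unique word. Inside the gene, 100 bp from the start, 5 of 9 were covered in both cell types and 0 of 9 had a unique word. Over all snRNA peaks at the gene, centers were upstream of the gene in 25, inside it in 12 and downstream of it in 31 of 68 MPP3 peaks, and in 21, 8 and 39 of 68 MPP4 peaks.

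**Figure D4:**
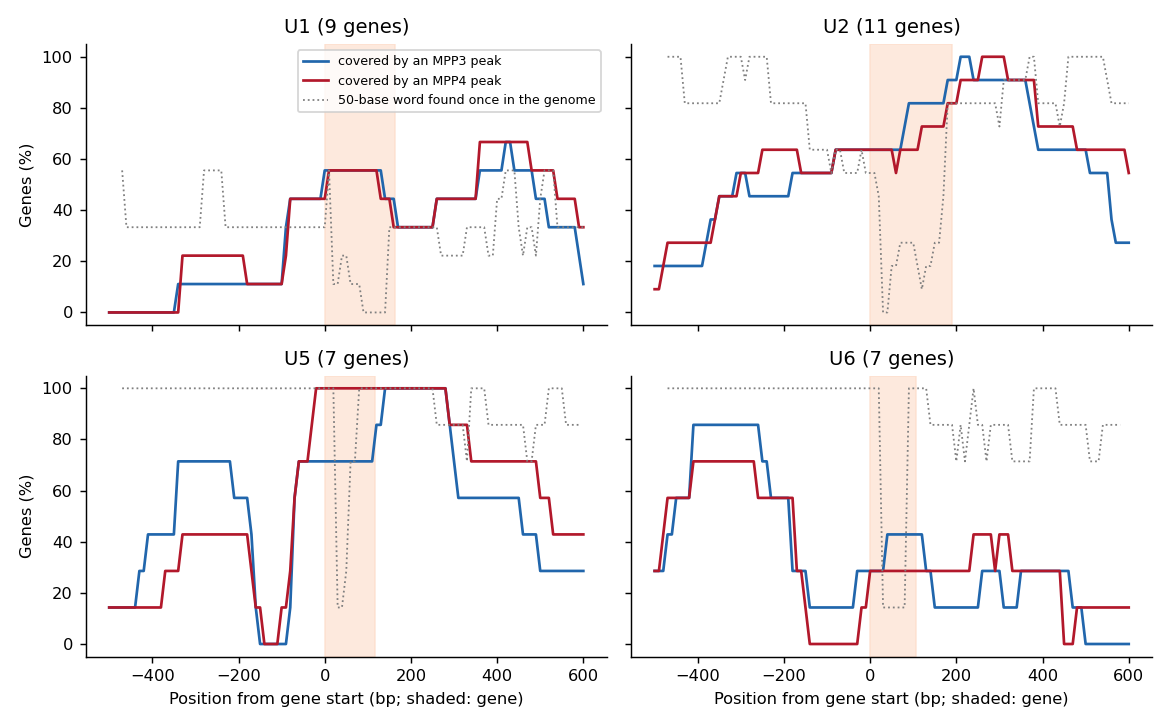
Share of genes covered by an MPP3 peak (blue) or an MPP4 peak (red) at each position from the gene start (x axis, bp; gene shaded), for U1, U2 and U6 genes of at least 95% identity and all U5 genes, each with a peak. The dotted line is the share of genes whose 50-base word at that position occurs once in the genome, and it falls inside the gene; at 100 bp upstream of the start, where it is 7 of 7 genes for U5 and U6, peaks cover 0 U5 genes in MPP3 and 1 in MPP4 cells, and 1 and 0 U6 genes.

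Peaks at the gene were mostly found in both cell types. In MPP3 cells 54 of 68 (79.4%, 68.4 to 87.3%) overlapped an MPP4 peak, and in MPP4 cells 56 of 68 (82.4%, 71.6 to 89.6%) overlapped an MPP3 peak. Other peaks of the same level did so in 83.8% and 85.4%. The peaks found in 1 cell type were weak, with a median of 1.25 for 14 MPP3 peaks and 1.24 for 12 MPP4 peaks, against 3.92 and 3.95 for the shared ones. Counted by gene, 59 genes had a peak in both cell types, 12 in MPP3 only and 15 in MPP4 only, and every U2, U4, U5, U6atac, U7 and U11 gene with a peak had it in both. Of the genes with a peak in MPP4 cells only, *Gm23851* (3.31) and *Gm23205* (3.10), both U6 copies, were the highest. Their peaks did not overlap the U6 copy and were assigned to the neighbouring genes *Cops7a* and *Rnf14*. Genes with a peak in MPP3 cells only reached 1.83.

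Levels were set side by side for the genes with a peak in both cell types, although MPP3 and MPP4 values were normalized separately. The median of MPP4 minus MPP3 over the 59 genes was 0.14 on the log2 scale, compared with 0.04 over all shared peaks. By peak, it was 0.17 at the gene, 0.08 near it and 0.16 far from it, so the value at the gene was close to that far from it. U5 genes had a median difference of 0.57 and were higher in MPP4 cells in 6 of 7 genes, as *Gm22265* at 2.03 and 3.17. U2 genes had 0.15 and were higher in 9 of 11, and U6 genes 0.02 and higher in 9 of 16. These levels are not scaled to peak length, and peak extent could differ between the cell types. The *Gm22265* peak of MPP4 cells was 525 bp long, of which 197 bp overlapped the MPP3 peak. Whether peak extent accounts for the U5 difference was not tested. The widest difference with a higher level in MPP4 cells was at *Gm23405*, a degenerate U1 copy (3.49 and 4.73). The widest with a higher level in MPP3 cells was at *Gm25541* (6.28 and 5.31). Only the highest peak of each gene was compared, and *Gm23405* had 2 peaks in MPP3 and 1 in MPP4 cells, whereas *Gm25541* had 1 and 2. Whether the division of a region into peaks accounts for these differences was not tested. No error between libraries is known for these differences.

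**Figure D5:**
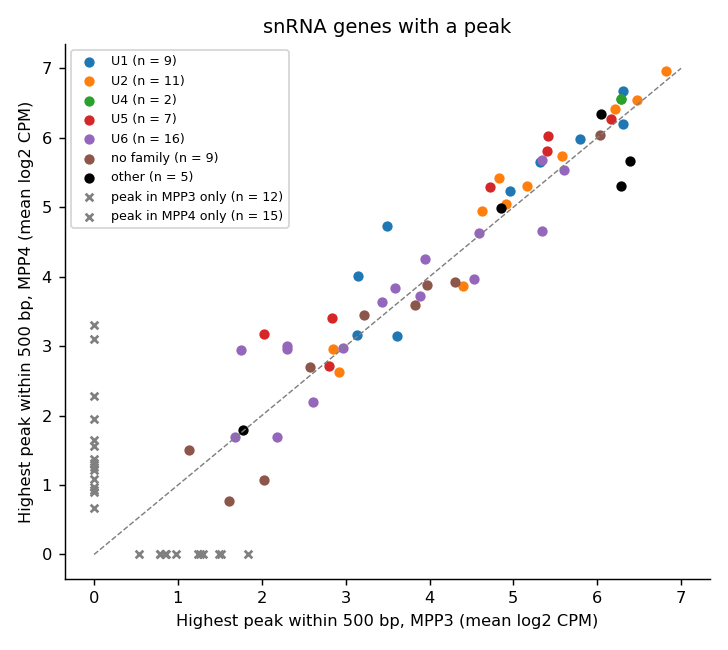
Highest peak within 500 bp of each snRNA gene, as mean log2 CPM in MPP3 (x axis) and MPP4 cells (y axis), colored by family, with the dashed line at equal values; U11, U12, U6atac and U7 genes are grouped as other. Crosses on the axes are genes with a peak in 1 cell type only, drawn at 0 for the other, and they reach 1.83 in MPP3 and 3.31 in MPP4 cells.

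Strong peaks were also assigned to snRNA genes from a distance. The highest was 5670 bp from *Gm26285*, a U6 copy on chromosome 5, in an intron of *3110082I17Rik* (chr5:139449062-139449688), with 6.96 in MPP3 and 7.67 in MPP4 cells. *Gm22675*, a U6 copy on chromosome 2, had peaks 3011 and 4277 bp away, of 6.81 and 6.33 in MPP3 cells, which had 4.74 and 5.08 in MPP4 cells. A peak in *Ptp4a3*, assigned to *Gm22106*, had 6.52 and 6.74, and 1 assigned to *Gm24695*, between genes on chromosome 16, had 6.02 and 6.34. A peak 9709.5 bp from *Gm22818*, a U6 copy, had 5.74 in MPP3 and 6.09 in MPP4 cells.

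Some genes collected many peaks. In MPP3 cells 51 genes had at least 3 peaks, which together made 196 of the 562 peaks, and only 14 of these lay at the gene. In MPP4 cells there were 47 such genes with 175 peaks, 9 of them at the gene. The U6 copy *Gm25622* had the most in MPP3 cells, 8 peaks from 1.03 to 4.74, none at the gene. *Gm25890*, a U1 gene on chromosome 3, had 5 peaks in each cell type, of which 1 was at the gene (3.15 in MPP3 cells) and the highest was 5.53 and 5.65.

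At the limits of the rule, levels ranged from weak to strong. Just inside 500 bp was a peak of 3.30 at 454 bp from *Gm23405* in MPP3 cells, and just outside was 1 of 2.53 at 514.5 bp from *Gm25703*. In MPP4 cells these were 1.49 at 449.5 bp from *Gm23472* and 2.13 at 527.5 bp from *Gm25630*. At the upstream limit of 20 kb, a peak at *Gm22418* (1.90 in MPP3 and 1.54 in MPP4 cells) was inside, and peaks of 1.14 and 2.44 were outside. At the downstream limit of 10 kb, a peak of 4.63 at 9785 bp from *Gm24402* was just inside in MPP3 cells, and 1 of 1.92 at 10348 bp from *Gm22479* was just outside in MPP4 cells. A peak at *Gm23538* was outside in MPP3 cells (1.15 at 10006 bp) and inside in MPP4 cells (1.92 at 9951 bp).

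Genes whose products make or handle snRNAs had accessible promoters. For snRNA transcription, which includes the SNAPc subunits, *Pou2f1* and the RNA polymerase III factor *Brf2*, all 10 annotated genes of 11 listed had a peak within 1 kb of a start in both cell types, with medians of 5.02 and 5.05. *Zfp143* was the highest (7.93 and 7.63) and *Brf2* the lowest (3.63 and 3.43). All 14 Integrator genes, which encode the complex that cuts snRNA 3' ends, had a peak (medians 5.61 and 5.36), as did all 7 Sm protein genes (5.27 and 5.23). Of 14 genes of export and assembly, the 13 on autosomes had a peak (4.54 and 4.39). Over all autosomal protein-coding genes, 67.5% had such a peak in MPP3 and 67.3% in MPP4 cells, with medians of 4.62 and 4.48.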

How the data were processed

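ATAC-seq of MPP3 and MPP4 cells was analysed, with samples grouped by their labels. The authors mapped reads to mm10, kept short fragments, found peaks with MACS2 2.2.7.1 on merged replicates of each condition, and joined WT and KO peaks into 1 set per cell type. The deposited log2 values are the mean log2 CPM of each peak from the fit the authors made with edgeR 3.32.0, separately for each cell type. The log2 fold change, F statistic, p-value and FDR in the same tables are the authors' own comparison of genotypes and were not used.

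Peak centers were assigned to GENCODE vM21 transcripts, with the smallest distance to transcript start, center or end. Families came from RefSeq products on the same strand, and identity from edit distance with edlib 1.3.9.post1. The 50-base words were counted over GRCm38 on both strands. Peaks of the cell types were matched by at least 1 shared bp. Shares have 95% Wilson intervals and medians have 95% order-statistic intervals, and both cover counting error only. Peaks are not replicates and no test was made. Assignment and word counting were tested on simulated data. Motif background came from RefSeq promoters. Some promoter sequences are not reported here. Named genes were the genes beginning with Rnu, the 10 highest peaks at the gene and 5 highest elsewhere in each cell type, peaks at the limits and genes with at least 3 peaks; others are named within a family, group or motif count, after their values were seen. The peaks and lists were chosen with earlier results of these data known. Python 3.11.15, numpy 2.4.6, pandas 2.3.3, scipy 1.17.1 and matplotlib 3.10.9 were used. Alternatives changed the assignment, the distance limits, the level, the overlap and the motif match.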

Additional observations from a re-analysis of the deposited data

How the results depend on the processing

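No paired analysis was possible because the tables give no value per library, and for the same reason no replicate could be left out. Counts depended on the limits. With a mean log2 CPM of at least 2 there were 288 snRNA peaks in MPP3 and 301 in MPP4 cells. Peaks at the gene numbered 42 and 38 within 250 bp, 104 in MPP3 cells within 1000 bp, and 32 and 31 when the peak had to overlap the gene. With a mean log2 CPM of at least 2, the share found in both cell types rose to 91.3% and 94.0% of all snRNA peaks, and to 98.0% in MPP3 and 98% in MPP4 cells at the gene. The share at a protein-coding promoter was 0.356% and 0.546% within 500 bp, and 2.49% and 3.10% within 2000 bp. With 1 mismatch in the octamer, 32.4% and 42.6% of peaks at the gene held it, against 16.1% and 17.5% of other peaks of the same level, so that the contrast was smaller than for the exact octamer. Assignment by transcript start only gave 748 snRNA peaks in MPP3 and 730 in MPP4 cells, in place of 562 and 549. The other alternatives stayed within the interval of the reported value, or within 1.5 times a count. The difference between medians at the gene and far from it stayed positive in every alternative run, from 1.10 to 1.57. The value per kb was added after seeing the data. Without values per library, the precision of weak peaks is unknown.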
